A study of Mus with 8 samples.

Results

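The genes described here are the matrix metalloproteinases (MMPs), the ADAMTS proteases and the tissue inhibitors of metalloproteinases (TIMPs) of the mouse preadipocyte line 3T3-L1. A gene belonged to the set if its mouse symbol in the count table was Mmp with a number and at most a letter a or b after it, Adamts with a number, or Timp1 to Timp4. The rule used names and no measured value. It gave 46 of the 24013 genes of the table, namely 23 Mmp, 19 Adamts and 4 Timp genes. Enough reads for a test were found for 31 of them (15 Mmp, 13 Adamts and 3 Timp genes), and 15 were too low (Adamts3, Adamts8, Adamts13, Adamts17, Adamts18, Adamts19, Mmp1a, Mmp7, Mmp8, Mmp16, Mmp21, Mmp24, Mmp25, Mmp27 and Timp4, with at most 16 counts in a library). None of the 46 was at 0 in every library.

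MMPs and ADAMTS are zinc-dependent enzymes that are secreted or held at the cell surface as inactive proenzymes and that cut proteins of the extracellular matrix. MMPs degrade collagens, gelatin and other matrix proteins, whereas ADAMTS bind to the matrix through thrombospondin repeats and cleave proteoglycans such as versican or trim procollagens. TIMPs occupy the active site of the enzymes and block them, and Timp3 also inhibits several ADAMTS. When preadipocytes become fat cells, a fibroblast type of matrix gives way to a basement membrane around each cell, a change for which these proteases are known. RNA was measured here, and neither proenzyme activation nor protease activity.

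C cells were infected with a lentivirus carrying a scrambled shRNA, and P cells with the same kind of virus carrying an shRNA against Prep1 (gene Pknox1), a TALE homeodomain factor. Both were puromycin-selected pools, with 1 shRNA in each. RNA was sequenced at day −2 (uninduced cells), in medium with bovine calf serum, and at day 1 (induced cells), the day after the adipogenic-inducing cocktail of dexamethasone (1 µM), IBMX (0.5 mM) and insulin (1 µg/ml) in 10% FBS. Each of the 4 conditions had 2 replicas, so that every pair of values below gives replica 1 and replica 2 of a condition. The p-values measure the spread between these replicas, with 1 estimate for each gene that the 4 conditions shared. They do not measure the spread of the 2 conditions compared alone. An exact permutation test of 2 against 2 libraries could not go below p = 0.333. The day 1 and day −2 samples differed in the cocktail, in serum and in time at confluence, and these cannot be told apart.

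Prep1 RNA had 28.1 and 26.5 CPM in uninduced C and 17.3 and 18.3 in uninduced P cells. It had 38.1 and 36.5 in induced C and 23.6 and 23.8 in induced P cells, without overlap of the groups on either day. P cells were 1.53-fold lower at day −2 (log2 ratio −0.62 ± 0.14 (SE), edgeR adjusted p = 0.0558). At day 1 they were 1.57-fold lower (log2 ratio −0.65 ± 0.14 (SE), edgeR adjusted p = 0.0575). Neither ratio passed the threshold for a call that is given below. CPM are read counts normalised to library sizes that were scaled by TMM, and the 8 libraries held between 20428816 and 27614353 counts, at which 3 counts amount to 0.107 to 0.160 CPM. The replicas of P cells at day −2 differed from each other far more than those of the other conditions. The SD of the log2 difference between replicas over 5600 well-measured genes was 0.795 there, against 0.137 in uninduced C, 0.261 in induced C and 0.121 in induced P cells. The spread shared by the conditions does not follow this difference. The p-values may thus be too small in comparisons with these P libraries and too large in those without them. All 9 fibroblast and preadipocyte markers looked at were above 1 CPM in every library. Their sums were 63111 and 19172 CPM in replicas 1 and 2 of uninduced P cells, mostly through Col1a1 and Col1a2, and 13042 to 17774 CPM in the 6 other libraries. By the test described next, Pdgfrb and Thy1 of these markers were higher in uninduced P than in uninduced C cells. With induction, Ly6a, Dlk1 and Pdgfra rose in both cell types. Col1a1, Col1a2, Pdgfrb and Thy1 fell with induction in P cells, and Pdgfrb and S100a4 in C cells. Summed levels were 3.82 to 8.37 CPM for 7 leukocyte markers and 0.398 to 1.86 CPM for 4 endothelial markers. For 4 fat cell markers (Adipoq, Fabp4, Plin1 and Cidec), the sums were 2.31 to 2.66 CPM in uninduced and 1.62 to 1.91 in induced C cells, and 22.2 to 33.9 in uninduced P cells and 129 in each replica of induced P cells. By the same test, Fabp4 was lower and Cidec higher in induced than in uninduced C cells, and Adipoq and Plin1 were not called there. The part of these markers in the differences below was not tested, and in bulk RNA fewer cells of a type and less RNA per cell cannot be told apart.

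The tests were edgeR quasi-likelihood tests over the 13339 genes with enough counts. A gene was called changed when its Benjamini-Hochberg adjusted p was under 0.1 and the ratio of the groups was over 2 or under 0.5. Induction changed 17 of the 31 tested members in C cells, 7 higher and 10 lower at day 1, where 20.4% of all tested genes were called (10.7% higher and 9.68% lower). In P cells it changed 16, 6 higher and 10 lower, against 18.0% of all genes (7.65% higher and 10.4% lower). For the tested members the median log2 ratio of induction was −0.52 (C cells) and −0.47 (P cells), and that of all genes was −0.01 and 0.02. Between P and C cells, 12 members differed at day −2, with 7 higher and 5 lower in P cells, against 6.98% of all genes (4.83% higher and 2.15% lower). The lower ones included Mmp12, which had enough counts for a test through the uninduced C cells alone. That call, like the falls of Mmp10, Mmp12 and Mmp1b with induction, could hardly have gone the other way. At day 1, 8 members differed, 4 in each direction, against 4.06% of all genes (1.83% higher and 2.23% lower). Without either C replica of day −2 the day −2 count was 4, without replica 2 of P cells at day −2 it was 20, and with only the day −2 libraries in the fit it was 2 (Adamts1 and Adamts9). The day 1 count was 3 without either C replica and 2 without either P replica of that day. The shares of all genes called in these smaller fits are not given here. The changes in count can therefore not be read as particular to the members. The members had a median log2 ratio (P over C) of 0.37 at day −2 and 0.09 at day 1, against 0.01 for all genes on each day. Groups of 2 libraries without overlap were common over all genes (77.7% and 60.6% for induction in C and P cells, 53.8% and 60.5% between the cells at day −2 and at day 1), so that a lack of overlap alone says little. In all, edgeR called 22 of the 31 tested members somewhere, and Adamts4, Adamts6, Adamts10, Adamts20, Mmp9, Mmp14, Mmp15, Mmp20 and Timp2 were not. The share of all genes called somewhere is not given here, so the 22 are no result about the members in particular. With DESeq2 in place of edgeR, Mmp9 was called at day −2 and Adamts4, Mmp14 and Timp2 in the interaction.

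Among the ADAMTS that cleave versican and aggrecan, Adamts1 and Adamts9 rose strongly with induction and were already higher in P than in C cells before it. Adamts5 was higher in P cells on both days and was not called with induction in either cell type. Adamts15 rose in P cells, with no call in C cells, and Adamts4 was not called in any comparison by edgeR. These enzymes are often called aggrecanases, and the targets of Adamts1, Adamts5, Adamts9 and Adamts15 include versican, the large proteoglycan of loose connective tissue.

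Adamts1 had 176 and 173 CPM in uninduced C cells, 763 and 595 in uninduced P cells, 1768 and 2138 in induced C cells and 2414 and 2368 in induced P cells. The P cells at day −2 were thus above both C replicas and below all day 1 libraries, and the day 1 groups also did not overlap. Before induction P cells were 3.88-fold higher (log2 ratio 1.96 ± 0.19 (SE), edgeR adjusted p = 0.00288). Among induced cells the log2 ratio, P over C, was 0.29 ± 0.18 (adjusted p = 0.527). Induction raised Adamts1 11.2-fold in C cells (log2 ratio 3.48 ± 0.20 (SE), edgeR adjusted p = 1.06e-04) and 3.52-fold in P cells (log2 ratio 1.82 ± 0.18 (SE), edgeR adjusted p = 0.00119).

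Adamts9, which like Adamts1 cleaves versican, had 7.13 and 7.93 CPM in uninduced C cells, 69.9 and 55.1 in uninduced P cells, 87.6 and 115 in induced C cells and 195 and 199.8 in induced P cells. Its order over the conditions was that of Adamts1, with no overlap between groups. It was 8.30-fold higher in P than in C cells before induction (log2 ratio 3.05 ± 0.21 (SE), edgeR adjusted p = 0.00146), and induction raised it 13.4-fold in C cells (log2 ratio 3.75 ± 0.21 (SE), edgeR adjusted p = 1.08e-04) and 3.16-fold in P cells (log2 ratio 1.66 ± 0.19 (SE), edgeR adjusted p = 0.00200). At day 1 the P cells had an adjusted p of 0.0444 but a ratio of 1.95-fold, just under the threshold, and with library totals in place of TMM the gene was called. The day −2 differences of Adamts1 and Adamts9 were called without any 1 library and when only the day −2 libraries were fitted. The C cells at day −2 serve in both the day −2 comparison and the induction of C cells, so that these are not independent.

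Adamts5, the aggrecanase best known from cartilage, had 27.9 and 23.8 CPM in uninduced and 27.5 and 28.1 in induced C cells. P cells had 80.7 and 89.4 CPM uninduced and 89.6 and 89.2 induced. All 4 P libraries lay above all 4 C libraries, and the 2 days of each cell type overlapped. P cells were 3.28-fold higher at day −2 (log2 ratio 1.72 ± 0.15 (SE), edgeR adjusted p = 0.00242) and 3.22-fold higher at day 1 (log2 ratio 1.69 ± 0.15 (SE), edgeR adjusted p = 0.00373). The log2 ratio of day 1 to day −2 was 0.10 ± 0.15 in C cells (adjusted p = 0.653) and 0.07 ± 0.14 in P cells (adjusted p = 0.742). In the reference gene order Adamts5 is the neighbour of Adamts1, so the adjacent genes had different patterns. The day −2 call of Adamts5 was lost when only the day −2 libraries were fitted (adjusted p = 0.103).

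Adamts15, another versican-cleaving enzyme, had 1.51 and 3.06 CPM in uninduced C and 1.60 and 2.53 in uninduced P cells, groups that overlapped, and 3.31 and 4.78 in induced C and 15.3 and 16.7 in induced P cells. It rose 7.63-fold with induction in P cells (log2 ratio 2.93 ± 0.41 (SE), edgeR adjusted p = 0.00395), with a log2 ratio of 0.83 ± 0.40 in C cells (adjusted p = 0.168), and was 3.94-fold higher in P cells at day 1 (log2 ratio 1.98 ± 0.39 (SE), edgeR adjusted p = 0.0429). The interaction, the response of P cells minus that of C cells, was 2.10 ± 0.56 on the log2 scale and was not called (adjusted p = 0.166). The day 1 call was lost without any 1 of the 4 day 1 libraries (adjusted p = 0.219 to 0.293).

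Adamts4 is named here after its values were seen, as the remaining abundant member of this group. It had 27.2 and 24.6 CPM in uninduced C and 48.3 and 27.9 in uninduced P cells, and 32.0 and 37.6 in induced C and 18.9 and 20.6 in induced P cells. P cells were above C cells before induction and below them after it, in all replicas, but edgeR called neither difference (log2 ratio 0.55 ± 0.26, adjusted p = 0.237, and −0.82 ± 0.26, adjusted p = 0.176). DESeq2 called the interaction (−1.39, adjusted p = 0.0322).

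**Figure D1:**
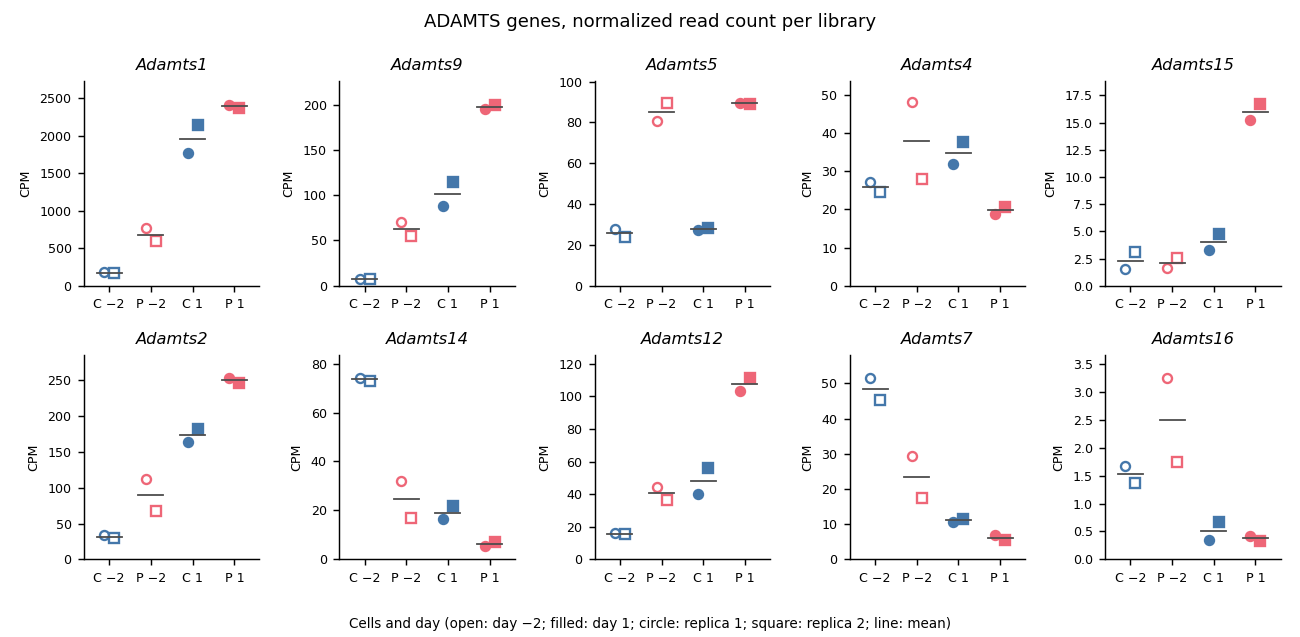
Normalised read counts (CPM, linear axes from 0) of 10 ADAMTS genes in the 8 libraries. Open symbols are day −2 and filled ones day 1, circles replica 1 and squares replica 2, blue C cells and red P cells, and lines are means. Adamts1 and Adamts9 climb from uninduced C over uninduced P cells to the day 1 samples, whereas Adamts5 separates P from C cells on both days.

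The procollagen N-proteinases, which remove the amino-terminal propeptide from fibrillar procollagens, moved in opposite directions. Adamts2 had 34.1 and 29.8 CPM in uninduced C and 113 and 67.3 in uninduced P cells, and 164 and 183 in induced C and 254 and 246 in induced P cells. Adamts14 had 74.0 and 73.0 CPM in uninduced C and 32.2 and 16.9 in uninduced P cells, and 16.3 and 21.9 in induced C and 5.43 and 7.19 in induced P cells. Neither gene overlapped between groups in these comparisons: Adamts2 was lowest and Adamts14 highest in uninduced C cells. Induction raised Adamts2 5.43-fold in C cells (log2 ratio 2.44 ± 0.26 (SE), edgeR adjusted p = 9.93e-04) and 2.78-fold in P cells (log2 ratio 1.47 ± 0.25 (SE), edgeR adjusted p = 0.00808). It lowered Adamts14 3.85-fold in C cells (log2 ratio −1.94 ± 0.33 (SE), edgeR adjusted p = 0.00667) and 3.88-fold in P cells (log2 ratio −1.96 ± 0.34 (SE), edgeR adjusted p = 0.00902). The third gene of the group, Adamts3, had 0 to 16 counts and was not tested.

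In P cells at day −2, Adamts2 was 2.82-fold higher (log2 ratio 1.50 ± 0.25 (SE), edgeR adjusted p = 0.0198) and Adamts14 3.00-fold lower (log2 ratio −1.59 ± 0.33 (SE), edgeR adjusted p = 0.0411) than in C cells. At day 1 Adamts14 was 3.03-fold lower (log2 ratio −1.60 ± 0.34 (SE), edgeR adjusted p = 0.0543), and the log2 ratio of Adamts2 was 0.53 ± 0.24 (adjusted p = 0.355). The day −2 calls were lost without either C replica of that day (adjusted p = 0.168 to 0.217 for Adamts2 and 0.241 to 0.248 for Adamts14). That of Adamts14 at day 1 was lost without any 1 of the C libraries or of the P libraries at day 1 (adjusted p = 0.148 to 0.400).

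Adamts7 and Adamts12, which share the cartilage oligomeric matrix protein (COMP) as a substrate, also moved apart. Adamts12 had 16.3 and 15.3 CPM in uninduced C and 44.6 and 36.3 in uninduced P cells, and 39.9 and 55.8 in induced C and 103 and 111 in induced P cells. Its induction was 3.03-fold in C cells (log2 ratio 1.60 ± 0.21 (SE), edgeR adjusted p = 0.00235) and 2.65-fold in P cells (log2 ratio 1.41 ± 0.20 (SE), edgeR adjusted p = 0.00470), and P cells were 2.56-fold higher at day −2 (log2 ratio 1.36 ± 0.21 (SE), edgeR adjusted p = 0.0145) and 2.24-fold higher at day 1 (log2 ratio 1.17 ± 0.20 (SE), edgeR adjusted p = 0.0308). The P replicas were above the C replicas on both days. Adamts7 had 51.6 and 45.3 CPM in uninduced C and 29.5 and 17.4 in uninduced P cells, and 10.7 and 11.5 in induced C and 6.84 and 5.51 in induced P cells. It fell 4.36-fold with induction in C cells (log2 ratio −2.13 ± 0.28 (SE), edgeR adjusted p = 0.00237) and 3.79-fold in P cells (log2 ratio −1.92 ± 0.28 (SE), edgeR adjusted p = 0.00478), and it was 2.07-fold lower in P cells at day −2 (log2 ratio −1.05 ± 0.27 (SE), edgeR adjusted p = 0.0735). P replicas of Adamts7 were below C replicas on both days, and at day 1 the log2 ratio was −0.85 ± 0.28 (adjusted p = 0.181).

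The day −2 call of Adamts12 was lost without either C replica of day −2 (adjusted p = 0.161 to 0.177). At day 1 it was lost without either C replica of day −2, replica 1 of C cells at day 1 or either P replica of day 1 (adjusted p = 0.103 to 0.252). The day −2 call of Adamts7 was kept only without replica 1 of P cells at day −2. Without replica 2 of those cells its ratio no longer passed the threshold (log2 ratio −0.72), and without any other library its adjusted p was 0.140 to 0.377.

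Adamts16, a protease with few known substrates, was low throughout, with 1.67 and 1.37 CPM in uninduced C and 3.25 and 1.75 in uninduced P cells, and 0.355 and 0.677 in induced C and 0.427 and 0.327 in induced P cells. All day 1 libraries were below all day −2 libraries. It fell 2.94-fold in C cells (log2 ratio −1.55 ± 0.50 (SE), edgeR adjusted p = 0.0625) and 6.49-fold in P cells (log2 ratio −2.70 ± 0.52 (SE), edgeR adjusted p = 0.0136). The first call was lost without any 1 of the C libraries or of the day 1 P libraries (adjusted p = 0.105 to 0.275), and the second without replica 2 of P cells at day 1 (adjusted p = 0.119). Of the ADAMTS not yet given, Adamts6, Adamts10 and Adamts20 were tested and not called at these thresholds with all 8 libraries. The 6 untested ones are listed at the start.

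Among the MMPs outside the run of neighbouring genes described further below, Mmp2, a gelatinase that also cuts basement membrane collagen, rose with induction in both cell types. Mmp28 and Mmp19 rose in C cells, whereas in P cells neither was called. Mmp23 and Mmp11 were lower at day 1, and Mmp17 was higher in P cells before induction.

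Mmp2 had 214 and 218 CPM in uninduced C and 288 and 342 in uninduced P cells, and 1249 and 1213 in induced C and 1719 and 1653 in induced P cells. The P replicas were above the C replicas on both days, and all day 1 libraries were far above all day −2 libraries. Induction raised it 5.70-fold in C cells (log2 ratio 2.51 ± 0.15 (SE), edgeR adjusted p = 1.48e-04) and 5.35-fold in P cells (log2 ratio 2.42 ± 0.15 (SE), edgeR adjusted p = 2.25e-04). P over C cells gave a log2 ratio of 0.55 ± 0.15 at day −2 (adjusted p = 0.0823) and 0.45 ± 0.15 at day 1 (adjusted p = 0.173), under the ratio threshold on both days. The difference between the induction responses was −0.09 ± 0.21 (adjusted p = 0.797).

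Mmp14, the membrane-bound MMP that activates the Mmp2 proenzyme in a complex with Timp2, is given after its values were seen. It had 159 and 145 CPM in uninduced C and 345 and 235 in uninduced P cells, and 277 and 289 in induced C and 229.7 and 226 in induced P cells. The P replicas were above the C replicas before induction and below them after it. None of its ratios passed the threshold, with log2 values of 0.90 ± 0.20 for induction in C cells (adjusted p = 0.0180), −0.35 ± 0.20 in P cells (adjusted p = 0.246), 0.93 ± 0.20 between P and C cells at day −2 (adjusted p = 0.0453) and −0.31 ± 0.20 at day 1 (adjusted p = 0.546). Its interaction was called by DESeq2 (−1.26, adjusted p = 0.00470) and by edgeR with no filter on low counts or with at least 10 counts in every library (adjusted p = 0.0773 and 0.0949). The other gelatinase, Mmp9, named for completeness, had 5.06 and 6.65 CPM in uninduced C and 2.18 and 2.64 in uninduced P cells, and 3.16 and 6.97 in induced C and 2.61 and 3.03 in induced P cells. P replicas of Mmp9 were the lower ones on both days, with edgeR adjusted p of 0.118 and 0.373, and the day −2 difference was called by DESeq2 (log2 ratio −1.28, adjusted p = 0.0485) and by edgeR with no filter on low counts.

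Mmp28, also called epilysin, had 8.57 and 8.42 CPM in uninduced C and 12.9 and 9.17 in uninduced P cells, and 51.1 and 65.9 in induced C and 18.0 and 18.3 in induced P cells. C cells at day 1 thus stood above the 6 other libraries. Induction raised Mmp28 6.88-fold in C cells (log2 ratio 2.78 ± 0.23 (SE), edgeR adjusted p = 3.82e-04), and its log2 ratio in P cells was 0.72 ± 0.22 (adjusted p = 0.0584). At day 1 it was 3.23-fold lower in P than in C cells (log2 ratio −1.69 ± 0.22 (SE), edgeR adjusted p = 0.0115). This call was lost without replica 2 of C cells or either replica of P cells at day 1 (adjusted p = 0.102 to 0.160).

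Mmp19, an MMP of many tissues that cleaves basement membrane proteins, had 25.2 and 23.3 CPM in uninduced C cells, 49.9 and 48.3 in uninduced P cells, 54.4 and 56.1 in induced C cells and 56.4 and 50.9 in induced P cells. C cells at day −2 were the low samples, and the other 6 libraries lay close together. It rose 2.28-fold in C cells (log2 ratio 1.19 ± 0.14 (SE), edgeR adjusted p = 0.00155), with a log2 ratio of 0.13 ± 0.14 in P cells (adjusted p = 0.527), and was 2.02-fold higher in P cells at day −2 (log2 ratio 1.01 ± 0.14 (SE), edgeR adjusted p = 0.0101). That ratio sat at the threshold: the call was lost without replica 1 of P cells at day −2 or any 1 C library (log2 ratio 0.96 to 1.07, adjusted p = 0.000613 to 0.162), and with library totals the log2 ratio was 0.83. Its overlapping neighbour Tmem198b had 446 to 1005 counts, against 527 to 1410 for Mmp19, and its reads could have entered the count, since the use of the strand is not stated.

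Mmp23, a membrane-anchored MMP, had 12.2 and 11.2 CPM in uninduced C and 27.7 and 18.0 in uninduced P cells, and 3.51 and 3.15 in induced C and 4.66 and 5.51 in induced P cells. It fell 3.51-fold with induction in C cells (log2 ratio −1.81 ± 0.26 (SE), edgeR adjusted p = 0.00346) and 4.49-fold in P cells (log2 ratio −2.17 ± 0.26 (SE), edgeR adjusted p = 0.00214). P replicas were above C replicas on both days, with log2 ratios of 0.96 ± 0.25 (adjusted p = 0.0734) and 0.61 ± 0.26 (adjusted p = 0.311) that did not pass the thresholds. Mib2, which overlaps Mmp23 in the reference, had 335 to 1118 counts, more than the 79 to 521 of Mmp23.

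Mmp11, a stromelysin that acts mainly on proteins other than matrix fibres, had 33.3 and 28.8 CPM in uninduced C and 40.5 and 24.7 in uninduced P cells, and 14.8 and 18.6 in induced C and 17.3 and 13.9 in induced P cells. All day 1 libraries were below all day −2 libraries. The fall of 2.09-fold in P cells was called (log2 ratio −1.06 ± 0.28 (SE), edgeR adjusted p = 0.0371), and that of C cells missed the ratio threshold (log2 ratio −0.89 ± 0.27, adjusted p = 0.0540). The call in P cells was lost without replica 1 of P cells at day −2 (log2 ratio −0.67), without either P replica of day 1 (adjusted p = 0.133 and 0.232) with library totals (log2 ratio −0.85) and with only the P libraries in the fit (adjusted p = 0.160).

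Mmp17, which is tied to the membrane by a lipid anchor, had 12 and 1 counts in uninduced C and 38 and 52 in uninduced P cells, and 12 and 5 in induced C and 35 and 25 in induced P cells. P replicas were above C replicas on both days. The day −2 difference was 7.14-fold (log2 ratio 2.84 ± 0.82 (SE), edgeR adjusted p = 0.0976), and that of day 1 was not called (log2 ratio 1.97 ± 0.80, adjusted p = 0.287). Leaving out any 1 C library or either P replica of day 1 ended the day −2 call (log2 ratio 2.00 to 5.29, adjusted p = 0.119 to 0.394). So did library totals in place of TMM (adjusted p = 0.121). With only the day 1 libraries in the fit, the day 1 difference was called (log2 ratio 1.97, edgeR adjusted p = 0.0333).

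**Figure D2:**
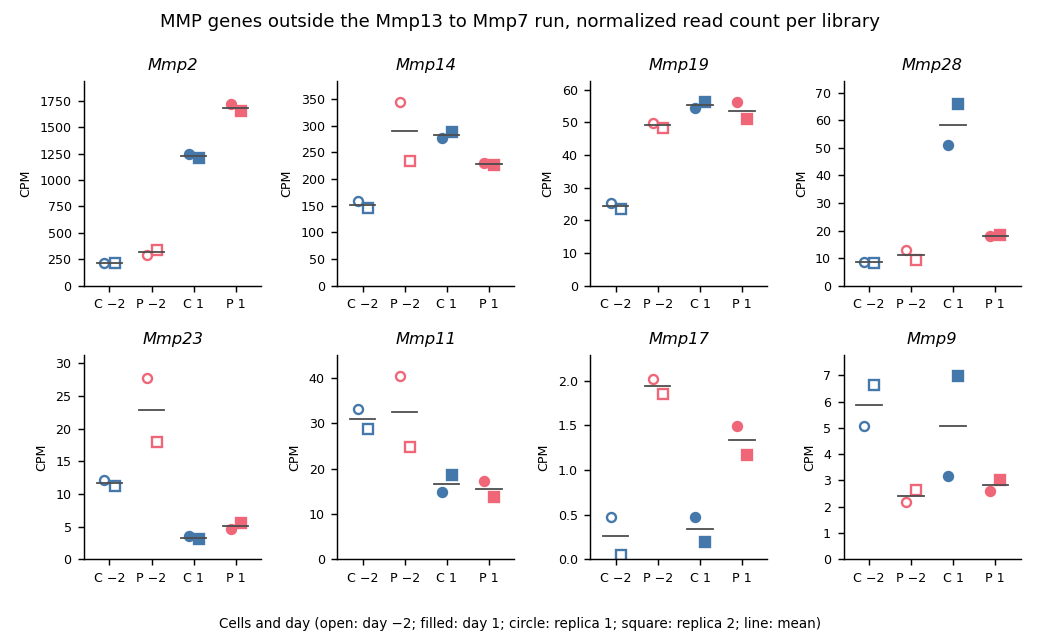
Normalised read counts (CPM, linear axes from 0) of 8 MMP genes outside the run of neighbours, with symbols as for the ADAMTS genes. The day 1 libraries of Mmp2 lie between 1213 and 1719 CPM and the day −2 libraries between 214 and 342, while Mmp28 is raised at day 1 in C cells.

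In the reference gene order, 10 MMP genes follow each other with no other protein-coding gene between them, in the order Mmp13, Mmp12, Mmp1b, Mmp3, Mmp1a, Mmp10, Mmp8, Mmp27, Mmp20 and Mmp7. They hold the secreted collagenases, stromelysins, macrophage elastase and matrilysin. Of the 6 tested, Mmp3, Mmp10, Mmp12, Mmp13 and Mmp1b fell with induction in C cells, and Mmp3, Mmp10 and Mmp1b in P cells. Mmp10 and Mmp12 had passed the filter on low counts through the uninduced C libraries alone, and Mmp1b through day −2 libraries alone, so that a call of these genes with induction could hardly be other than a fall, and their number is no support for a direction. The filter that asked for 10 counts in each library removed them and Mmp13. Between P and C cells, Mmp3 and Mmp12 were lower in P cells at day −2, and Mmp3 was higher in P cells at day 1. DESeq2 called Mmp13 lower in P cells at day −2 (log2 ratio −2.44, adjusted p = 0.0802), which edgeR did not, and did not call Mmp12 there. Because of the filter, a call of Mmp12 at day −2 could also hardly be other than lower in P cells. It is no support for a direction.

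Mmp3, the stromelysin that activates other proenzymes, had 32.6 and 36.5 CPM in uninduced C and 6.55 and 10.9 in uninduced P cells, and 0.710 and 0.557 in induced C and 2.44 and 3.08 in induced P cells. P cells were below C cells before induction and above them after it, without overlap. Induction lowered Mmp3 54.0-fold in C cells (log2 ratio −5.76 ± 0.35 (SE), edgeR adjusted p = 1.48e-04) and 3.17-fold in P cells (log2 ratio −1.67 ± 0.29 (SE), edgeR adjusted p = 0.00948). It was 3.95-fold lower in P cells at day −2 (log2 ratio −1.98 ± 0.28 (SE), edgeR adjusted p = 0.0115) and 4.32-fold higher at day 1 (log2 ratio 2.11 ± 0.34 (SE), edgeR adjusted p = 0.0238). The first of these was lost without either C replica of day −2 (adjusted p = 0.104 to 0.125) and the second without any 1 of the 4 day 1 libraries (adjusted p = 0.142 to 0.229). With only its own conditions in the fit, the fall in P cells was not called (adjusted p = 0.104), nor was the day −2 difference (adjusted p = 0.149).

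The other genes of the run were near the limit of detection, and their values are counts. Mmp10, a stromelysin, had 23 and 28 counts in uninduced C and 2 and 9 in uninduced P cells, and 0 in all 4 day 1 libraries. Against the level that 3 counts give in a library, it was at least 9.03-fold lower at day 1 in C cells (edgeR adjusted p = 0.0133) and at least 1.53-fold lower in P cells (adjusted p = 0.0675). Mmp1b, a relative of the interstitial collagenase, had 22 and 23 counts in uninduced C and 3 and 19 in uninduced P cells and none at day 1, at least 7.94-fold lower in C cells (adjusted p = 0.0222) and at least 2.99-fold lower in P cells (adjusted p = 0.0538). Its paralog Mmp1a had 0 to 7 counts. How reads shared by the pair were counted is not stated, so both are uncertain. In both genes the day −2 libraries were the only ones with reads.

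Mmp13, a collagenase, had 37 and 43 counts in uninduced C and 2 and 14 in uninduced P cells, and 4 and 6 in induced C and 2 and 9 in induced P cells. It fell 8.32-fold in C cells (log2 ratio −3.06 ± 0.84 (SE), edgeR adjusted p = 0.0377), and in P cells, which were low on both days, the adjusted p was 0.797. Mmp12, the macrophage elastase, had 11 and 20 counts in uninduced C cells, 0 in both replicas of uninduced P cells, 0 and 1 in induced C and 3 and 1 in induced P cells. No library other than the C replicas at day −2 had more than 3 counts. For these counts, 31 against 1, the ratio of day −2 to day 1 in C cells was 32.8 with an exact 95% interval of 5.47 to 1337 that covers counting error only (edgeR adjusted p = 0.0276). At day −2 the P cells were at least 4.14-fold lower than the C cells (adjusted p = 0.0535).

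Several of these calls were lost when 1 library was left out, while the ratios kept their direction. In C cells, the fall of Mmp13 was not called without any 1 of the 4 C libraries (adjusted p = 0.149 to 0.212), that of Mmp12 without either day −2 replica or replica 1 of day 1 (0.106 to 0.185), and that of Mmp1b without either day −2 replica (0.112 to 0.119). In P cells the falls of Mmp10 and Mmp1b were not called without either C replica of day −2 or either P replica of day 1, nor that of Mmp10 without replica 2 of P cells at day −2 (adjusted p = 0.108 to 0.221 and 0.130 to 0.188). Both genes were left out by the filter when only the P libraries were used. The day −2 difference of Mmp12 was not called without any 1 C library or either P replica of day 1 (0.102 to 0.346). Leukocyte markers summed to 7.31 to 8.37 CPM in uninduced C and 6.82 to 8.13 CPM in uninduced P cells, and to 3.82 to 4.42 and 4.96 to 6.86 CPM in induced C and P cells, and their part in the Mmp12 values was not tested. These sums hold markers that moved apart. Csf1r, the receptor for macrophage growth factor, had 5.74 and 4.96 CPM in uninduced C and 2.13 and 1.53 in uninduced P cells and at most 0.355 at day 1, and was called lower with induction in both cell types and lower in P cells at day −2. Cd68, another macrophage marker, was called higher with induction in both cell types, and Lyz2 higher in P cells at day −2. Among the epithelial markers, Krt8 had 3.11 and 2.35 CPM in uninduced C cells and at most 0.214 in the 6 other libraries. It was called lower at day −2 in P cells and with induction in C cells. The other epithelial markers listed did not share this order. Cdh1 had 0.159 and 0.354 CPM in uninduced C cells, was highest in replica 2 of uninduced P cells (0.678) and was not called in any comparison. Krt18 and Epcam were too low to be tested. The levels of Csf1r and Krt8 were thus highest in the same libraries as those of the run, and their part in its values was not tested.

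**Figure D3:**
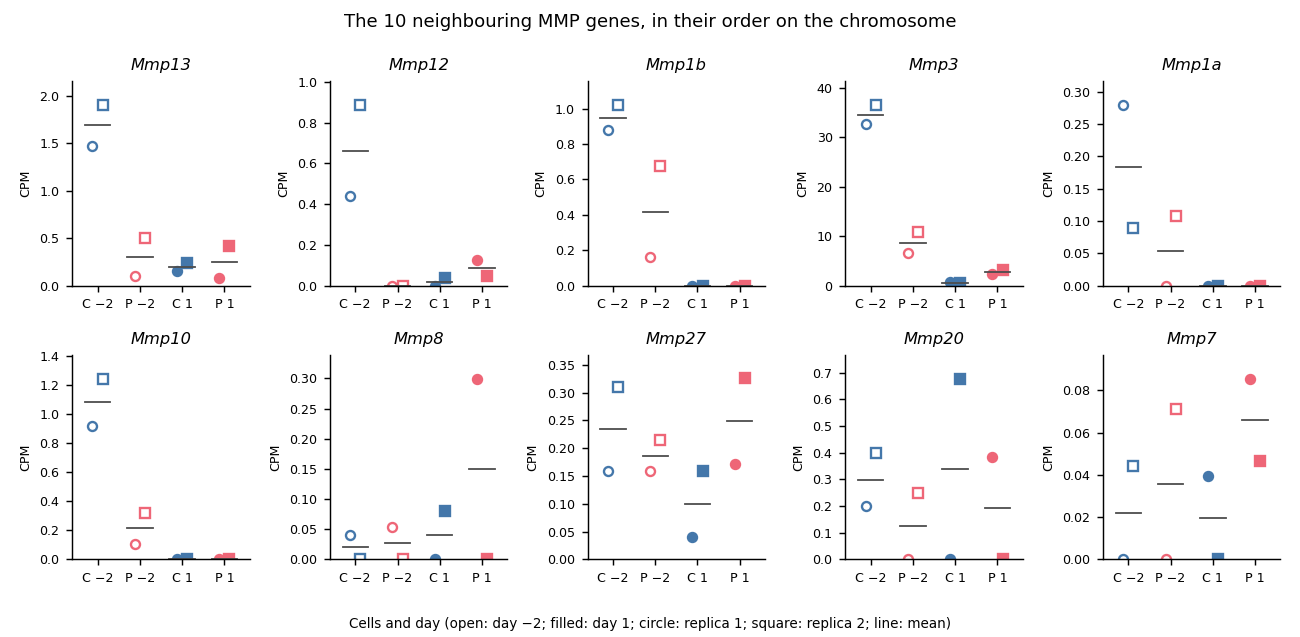
Normalised read counts (CPM, linear axes from 0 with a different scale in each panel) of the 10 neighbouring MMP genes in their order on the chromosome, with symbols as for the ADAMTS genes. Mmp13, Mmp12, Mmp1b, Mmp3 and Mmp10 are highest in the 2 replicas of uninduced C cells. The 5 other genes had at most 17 counts in a library.

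Of the inhibitors, Timp3 fell with induction and was lower in P than in C cells on both days, the largest change among the TIMPs tested. Timp1 fell in P cells and was lower in them at day 1. Timp2 was not called in any comparison by edgeR, whereas its interaction was called by DESeq2 (adjusted p = 2.67e-04) and, in edgeR, with library totals (0.0840) or with at least 10 counts in every library (0.0902). Timp4 was too low to be tested.

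Timp3, the TIMP that stays bound to the matrix and inhibits ADAMTS as well as MMPs, had 29.4 and 30.1 CPM in uninduced C and 8.95 and 8.42 in uninduced P cells, and 7.85 and 7.56 in induced C and 0.598 and 0.560 in induced P cells. The uninduced P cells and the induced C cells lay close together, and the induced P cells had 14 and 12 counts. Timp3 was 3.43-fold lower in P cells at day −2 (log2 ratio −1.78 ± 0.16 (SE), edgeR adjusted p = 0.00267) and 13.2-fold lower at day 1 (log2 ratio −3.72 ± 0.20 (SE), edgeR adjusted p = 8.55e-04). Induction lowered it 3.86-fold in C cells (log2 ratio −1.95 ± 0.16 (SE), edgeR adjusted p = 4.12e-04) and 14.8-fold in P cells (log2 ratio −3.89 ± 0.20 (SE), edgeR adjusted p = 1.28e-04). These 4 calls were kept without any 1 library, and that of day −2 was lost with only the day −2 libraries in the fit (adjusted p = 0.102). Syn3, the gene in which Timp3 lies in the reference, had 1 to 23 counts.

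Timp1, a secreted inhibitor of most MMPs, had 233 and 253 CPM in uninduced C and 149 and 215 in uninduced P cells, and 179 and 132 in induced C and 62.4 and 53.6 in induced P cells. Induced P cells were the lowest, and the P and C replicas did not overlap on either day. Induction lowered Timp1 3.14-fold in P cells (log2 ratio −1.65 ± 0.24 (SE), edgeR adjusted p = 0.00434), with a log2 ratio of −0.65 ± 0.23 in C cells (adjusted p = 0.0816). At day 1 it was 2.68-fold lower in P cells (log2 ratio −1.42 ± 0.23 (SE), edgeR adjusted p = 0.0251), a call that was lost without any 1 of the 4 day 1 libraries (adjusted p = 0.102 to 0.255). For uninduced cells the log2 ratio, P over C, was −0.42 ± 0.23 (adjusted p = 0.289).

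Timp2, which blocks Mmp2 and also helps Mmp14 to activate it, had 288 and 275 CPM in uninduced C and 261 and 271 in uninduced P cells, and 191 and 181 in induced C and 314 and 305 in induced P cells. C cells at day 1 were the low samples. The ratios stayed under the threshold, with log2 values of −0.59 ± 0.13 for induction in C cells (adjusted p = 0.0160), 0.22 ± 0.13 in P cells (adjusted p = 0.259), −0.08 ± 0.13 between P and C cells at day −2 (adjusted p = 0.689) and 0.73 ± 0.13 at day 1 (adjusted p = 0.0309). Timp4 had 3 and 0 counts in uninduced C and 1 and 3 in uninduced P cells, and 3 and 3 in induced C and 13 and 7 in induced P cells. The induced P cells were the only libraries above 3 counts, and with so few reads Timp4 was left out by the filter and not tested.

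**Figure D4:**
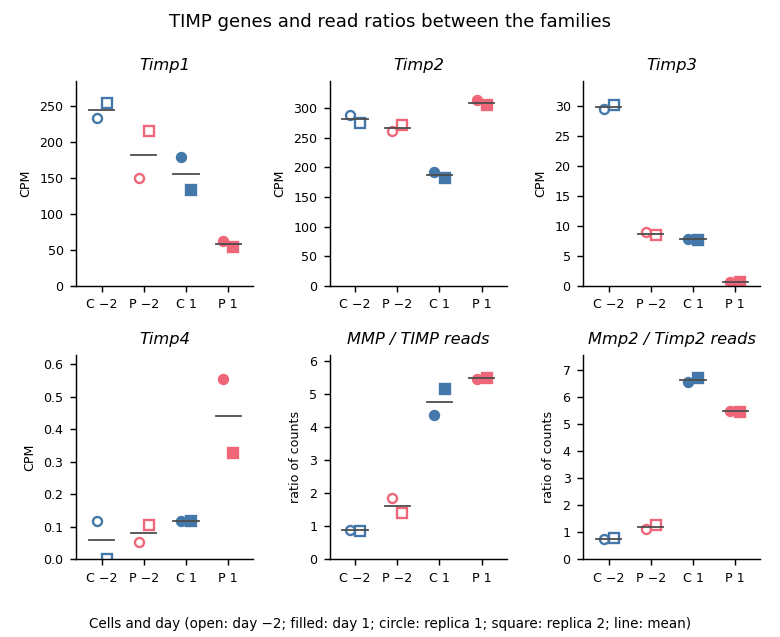
Normalised read counts (CPM, linear axes from 0) of the 4 TIMP genes, and the ratio of all MMP reads to all TIMP reads and of Mmp2 reads to Timp2 reads, in the 8 libraries, with symbols as for the ADAMTS genes. Timp3 is highest in uninduced C and lowest in induced P cells, and both ratios are above 4 in every day 1 library and below 2 in every day −2 library.

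The reads of the enzymes grew relative to those of their inhibitors with induction. The 46 genes together took 0.156% and 0.161% of the counts of uninduced C cells, 0.206% and 0.219% of uninduced P cells, 0.417% and 0.446% of induced C cells and 0.586% and 0.570% of induced P cells. The ratio of MMP to TIMP reads was 0.900 and 0.868 in uninduced C and 1.85 and 1.41 in uninduced P cells, and 4.38 and 5.15 in induced C and 5.45 and 5.50 in induced P cells. For ADAMTS to TIMP reads it was 0.848 and 0.806 in uninduced C and 3.00 and 1.96 in uninduced P cells, and 5.78 and 8.21 in induced C and 8.33 and 8.64 in induced P cells. The 4 conditions had the same order in both ratios, and no groups overlapped. Read ratios are not corrected for transcript length, so they serve to compare libraries and not enzymes with inhibitors.

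A few genes carried these sums. Mmp2 gave 43.2% and 44.9% of the MMP reads in uninduced C and 37.1% and 49.2% in uninduced P cells, and 75.5% and 73.3% in induced C and 83.7% and 83.6% in induced P cells. Adamts1 gave 37.8% and 38.5% of the ADAMTS reads in uninduced C cells and between 60.6% and 81.1% in the other libraries. The ratio of Mmp2 to Timp2 reads was 0.743 and 0.792 in uninduced C and 1.10 and 1.26 in uninduced P cells. At day 1 it was higher in C cells (6.53 and 6.69) than in P cells (5.48 and 5.43). Timp2 gave 83.2% and 84.8% of the TIMP reads in induced P cells, and 49.3% to 62.2% in the other libraries.

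Of the 12 members that differed between the uninduced cells and the 8 that differed between the induced cells, 4 were called in the same direction on both days, which is 33.3% of the first and 50% of the second. Over all genes, 203 were called in the same direction on both days, 21.8% of the 931 called at day −2 and 37.5% of the 542 called at day 1. Adamts5 and Adamts12 were higher and Adamts14 and Timp3 lower in P cells on both days, and 1 more gene, Mmp3, was called in opposite directions. The plot of the ratios of P to C cells shows the change between days for each gene. Adamts1, Adamts9, Adamts2, Mmp17, Mmp19, Adamts7 and Mmp12 were called at day −2 only, and Mmp28, Adamts15 and Timp1 at day 1 only. A call on 1 day only does not show that the days differ, which is the question of the next comparison.

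**Figure D5:**
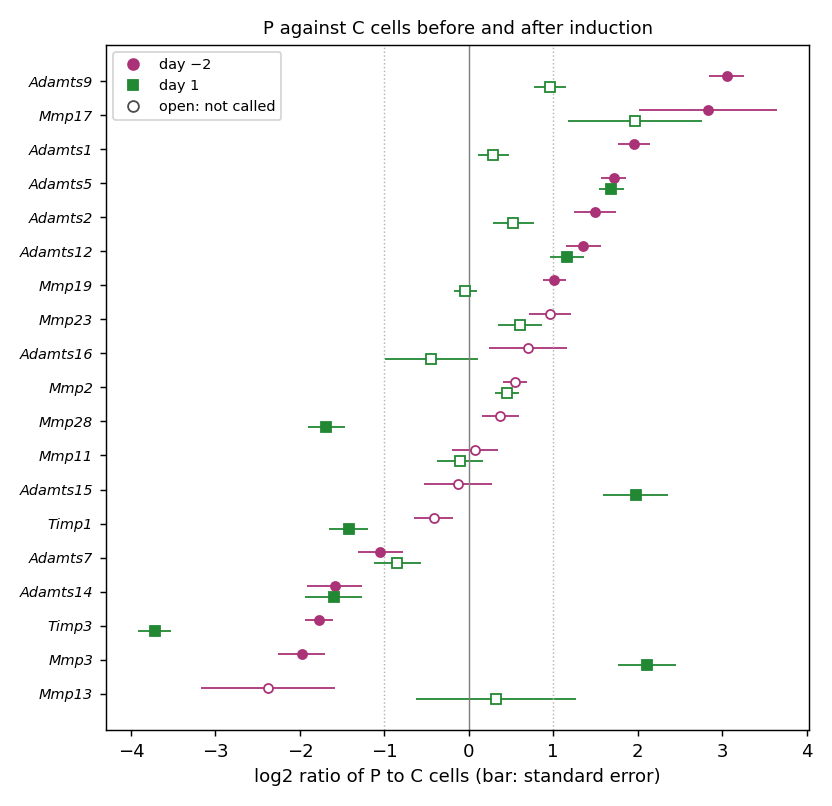
Ratio of P over C cells on a log2 axis, at day −2 (circles) and at day 1 (squares), for 19 members called in any comparison. Bars are the standard errors of edgeR, filled symbols are called, dotted lines mark ratios of 2 and 0.5, and Mmp10, Mmp12 and Mmp1b, with groups at 0 counts, are left out. Adamts5, Adamts12 and Adamts14 have similar ratios on both days, whereas Mmp3 changes sign and Timp3 moves from −1.78 to −3.72.

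Whether a member responded to induction differently in the P cells was asked with an interaction term, for which an adjusted p under 0.1 was enough and no ratio was required. It was called for 6 of the 31 members, 1 higher and 5 lower in P cells (2 and 4 with library totals in place of TMM), against 2.37% of all genes (0.435% higher and 1.93% lower). The median log2 difference was −0.19 for the members and −0.01 for all genes. The P libraries at day −2, whose replicas were the most apart, enter each of these values.

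Adamts1 and Adamts9 rose less in P cells, by −1.67 ± 0.25 (SE; edgeR adjusted p = 0.0388) and −2.09 ± 0.27 (adjusted p = 0.0212) on the log2 scale. Mmp28 (−2.06 ± 0.31, adjusted p = 0.0369) and Mmp19 (−1.06 ± 0.19, adjusted p = 0.0651) also rose less in P cells. Timp3 fell more in P cells (−1.94 ± 0.25, adjusted p = 0.0212), and Mmp3 fell less (4.09 ± 0.44, adjusted p = 0.0127). DESeq2 called 12 members, these 6 and Adamts4, Adamts15, Mmp12, Mmp14, Timp1 and Timp2.

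The count was 13 without replica 1 and 17 without replica 2 of P cells at day −2, and at most 2 without any 1 of the other libraries, so that none of the 6 was called in every fit that left out 1 library. Timp3, Adamts1, Mmp28 and Mmp19 lost the call without any 1 of the C libraries or of the P libraries at day 1 (adjusted p = 0.117 to 0.224, 0.106 to 0.286, 0.101 to 0.277 and 0.245 to 0.442). Adamts9 lost it without the same libraries except replica 1 of C cells at day 1 (0.103 to 0.197), and Mmp3 without replica 2 of C cells or of P cells at day 1 (0.102 to 0.103). Their differences kept their sign in all these fits. The shares of all genes called in these fits are not given here. The changes in count can therefore not be read as particular to the members.

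Some of the proteases and inhibitors that act on the same matrix, from lists drawn up beside the set, also changed with induction. Of 12 tested genes of the plasminogen system and of proenzyme activators, 2 rose and 4 fell in C cells and none rose in P cells, where the background over all genes was 10.7% higher and 9.68% lower in C cells and 7.65% higher in P cells. Plau, the urokinase that makes plasmin and so activates MMPs, had 32.2 and 30.9 CPM in uninduced C and 31.4 and 31.8 in uninduced P cells, and 2.21 and 2.27 in induced C and 1.58 and 0.840 in induced P cells. Its fall had log2 ratios of −3.81 ± 0.28 in C cells (edgeR adjusted p = 2.44e-04) and −4.69 ± 0.29 in P cells (adjusted p = 2.22e-04), and P and C cells overlapped at day −2. Its receptor Plaur (−3.27 and −4.28) and its inhibitor Serpinb2 (−5.28 and −5.51) also fell in C and P cells. Plat, the tissue plasminogen activator, fell in both cell types (−2.14 and −2.20) and was lower in P cells at day −2 (−1.48 ± 0.16, adjusted p = 0.00435) and at day 1 (−1.54 ± 0.16, adjusted p = 0.00605). Serpine2, an inhibitor of Plau and Plat, rose in C cells (1.25) and was higher in P cells at day −2 (1.50), and Bsg, known as an inducer of MMPs, rose in C cells (1.09).

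Of 7 tested inhibitors and binding partners outside the TIMPs, 3 rose and 3 fell in C cells, and 1 rose and 3 fell in P cells, against the same background and 10.4% lower in P cells. Lists this short are described and not tested. Reck, a membrane-anchored inhibitor of MMPs, had 3.83 and 3.77 CPM in uninduced C and 10.1 and 9.20 in uninduced P cells, and 12.8 and 12.2 in induced C and 27.7 and 27.0 in induced P cells. It rose with induction in C cells (1.72 ± 0.17, edgeR adjusted p = 7.24e-04) and in P cells (1.51 ± 0.16, adjusted p = 0.00146), and was higher in P cells at day −2 (1.34 ± 0.17, adjusted p = 0.00674) and at day 1 (1.13 ± 0.16, adjusted p = 0.0157), the opposite of Timp3 in each comparison. Thbs1, a thrombospondin that binds several of these enzymes, had 884 and 886 CPM in uninduced C and 5483 and 3815 in uninduced P cells, and 299 and 335 in induced C and 294 and 274 in induced P cells. It was higher in P cells at day −2 (2.39 ± 0.21, adjusted p = 0.00242) and fell more in them (interaction −2.55 ± 0.29, adjusted p = 0.0130). Thbs2 (−2.80 and −3.01) and Tfpi2 (−4.43 and −1.66) fell with induction in C and P cells, and Lrp1 (1.57), the receptor that clears proteases and their complexes, and Spock2 (2.82) rose in C cells.

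The substrate Vcan (versican) rose with induction, with 1024 and 999.9 CPM in uninduced C and 520.5 and 1290.0 in uninduced P cells, and 4975 and 4408 in induced C and 5096 and 4988 in induced P cells. Its log2 ratios were 2.21 ± 0.39 in C cells (edgeR adjusted p = 0.00796) and 2.48 ± 0.40 in P cells (adjusted p = 0.00680), and the P replicas at day −2 lay on either side of the C replicas. The other 3 substrates listed, Acan, Bcan and Ncan, were too low to be tested. Of 5 ADAMTS-like genes, which hold the matrix-binding parts of ADAMTS without the protease, Adamtsl4 rose in C cells (2.30) and Adamtsl4, Adamtsl1 and Adamtsl2 rose in P cells (2.15, 1.41 and 2.77). Adamtsl5 was higher in P cells at day −2 (1.20) and Adamtsl2 at day 1 (2.25). Of 9 membrane-bound ADAM proteases, Adam10 and Adam15 rose and Adam33 fell in C cells (1.01, 1.16 and −1.97). Adam33 fell in P cells (−2.75), and Adam8 was lower in P cells at day 1 (−2.08). Induction was called for 20% and 60% of the ADAMTS-like genes in C and P cells, and for 33.3% and 11.1% of the ADAM proteases. Over all genes the shares were 20.4% and 18.0%. Between P and C cells they were 6.98% of all genes at day −2 and 4.06% at day 1.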

How the data were processed

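RNA of 8 libraries was sequenced on the Ion Torrent system. The authors aligned the reads to mm9 with TopHat2 2.0.9 and deposited the counts per gene as whole numbers, without normalization. The use of the strand and the treatment of reads with several places are not given in the sources used here. Symbols came from a RefSeq list of GRCm38.p6, which matched 23929 of 24013 gene numbers and was otherwise used for gene order and overlap only.

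The analysis used edgeR 4.0.16 with limma 3.58.1 in R 4.3.3. Genes with few counts were removed with filterByExpr, libraries were scaled by TMM, and the model held 1 mean for each condition over all 8 libraries, with p-values adjusted over all 13339 genes. The code was tested on simulated data. Replicas were taken from the labels, and no pair of replicas held identical counts.

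The members and the gene lists were chosen with earlier results of these data known, so their counts are descriptions. Named by rule were all members called in any comparison and the 4 Timp genes. Adamts4 and Mmp14 were added after their values were seen, and Mmp9 for completeness. Transcript lengths and sequences were not used here, so levels were not ordered between genes and no sequence was searched. Results of a few genes outside the set are not reported here.

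The alternatives were DESeq2 1.42.0, edgeR scaled by the DESeq2 size factors or by library totals, no filter or at least 10 counts in every library, fits with the conditions of a comparison only, the replica number as a block, an adjusted p under 0.05, calls on p alone, and fits without each library in turn, whose remaining replica was assumed to vary like the other conditions. Intervals and floors (3 counts) cover counting error only.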

Additional observations from a re-analysis of the deposited data

Results flagged for a closer look

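The induction response differed between P and C cells, by the interaction test of edgeR, in 6 members. On the log2 scale, the response of P cells minus that of C cells was −1.67 for Adamts1, −2.09 for Adamts9, −1.06 for Mmp19, −2.06 for Mmp28, −1.94 for Timp3 and 4.09 for Mmp3. The first 4 rose in C cells and rose less in P cells, or were not called there. Timp3 fell more and Mmp3 fell less in P cells. The replicas of P cells at day −2, which enter each of these values, differed from each other more than those of the other conditions (SD of the log2 difference 0.795, against 0.121 to 0.261), and its part in the differences was not tested.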

How the results depend on the processing

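Of the 59 calls of a member in a comparison, 28 were kept in each alternative in which the gene was tested, 31 were lost in at least 1 of them, and none turned its direction. Asking for 10 counts in each library removed the genes of 10 of them. The counts of members called by induction stayed between 12 and 22 in C cells and between 12 and 19 in P cells, the highest with no threshold on the ratio.

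The day −2 count of 12 fell to 2 with only its own conditions in the fit, and ranged from 4 to 20 without 1 library. The day 1 count of 8 ranged from 2 to 9 without 1 library. The interaction count of 6 was 12 with DESeq2 and 3 with the replicate block, and ranged from 0 to 17 without 1 library. The count of 0 came without replica 2 of C cells or of P cells at day 1, where 13 and 12 members had an unadjusted p under 0.05 in edgeR. The shares of all genes called in these alternatives are not given here, so the changes in count are no result about the members in particular. Their causes were not tested.

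Adamts20 turned its direction without replica 1 of P cells at day −2: its log2 ratio of day 1 to day −2 in P cells went from −1.31 to 0.19, and that of P to C cells at day −2 from 0.73 to −0.78, none of them called. Without replica 2 the values were −2.06 and 1.47, and both of these were called. A further 64 changes of sign concerned 27 results that were not called. Before the change, each of these values was smaller than its own SE. Some changed values were larger than that SE. The log2 ratio of day 1 to day −2 of Mmp13 in P cells went from −0.36 ± 0.90 to 1.19 without replica 2 at day −2.

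Library totals in place of TMM moved the median of all log2 ratios to −0.11 and 0.19 for induction in C and P cells, −0.18 and 0.11 between P and C cells at day −2 and day 1, and 0.29 for the interaction. They gave 18, 15, 10, 9 and 6 members called.

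The replicas of different conditions share a number, and their deviations over genes correlated at 0.209 between uninduced C and P cells and at −0.355 to −0.052 between the other pairs, so the numbers were not taken to pair the samples. With the replicate block, 16, 15, 10, 7 and 3 members were called in the same order. Blocks with the day 1 numbers crossed in P cells, or in both cell types, were chosen after seeing the data and gave 17, 16, 10, 8 and 4, and 17, 16, 11, 8 and 6. At these depths a gene with under 3 counts in a library cannot be told from 0.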
